A study of Mus musculus with 6 samples.

Results

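Drd2 striatal projection neurons were the 1565 nuclei, of 60724 nuclei kept in 6 libraries of brain nuclei, whose UMIs (unique molecular identifiers, each counting 1 captured RNA molecule) met a fixed rule on marker genes. A member had at least 3 UMIs of Drd2 and Adora2a together, at least 5 of Rarb and Pde10a together, at most 1 of Drd1 and at most 2 of Otof and Chst9 together. All nuclei kept had at least 300 genes and at most 1% mitochondrial UMIs. The brains came from C57BL/6 S-56 mice injected at P7 with 5 µl into the right lateral ventricle and collected at P15. In the LPA group (3 mice, 1 library each) the injection held lysophosphatidic acid (LPA), a bioactive lipid of blood, as a model of post-hemorrhagic hydrocephalus, and in the vehicle group (3 mice, 1 library each) it held the 0.01% bovine serum albumin carrier alone. Whole brains without olfactory bulbs and cerebellum were frozen, and nuclei negative for the neuronal protein NeuN were sorted for 10x Genomics 3′ v3 single-nucleus libraries. The LPA concentration given to these mice is not in their labels. Xist and Y-linked counts showed that LPA replicate 1 and vehicle replicates 1 and 3 were male, and that the other 3 libraries were female.

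Drd2 neurons of the striatum are the GABAergic cells of the indirect pathway, which project to the external pallidum and hold back movement. Their dopamine D2 receptor lowers cyclic AMP through inhibitory G proteins, and their adenosine receptor of the Adora2a gene raises it through Gnal and Adcy5. They release enkephalin, made from Penk, whereas direct-pathway neurons carry the D1 receptor and make substance P from Tac1 and dynorphin from Pdyn. Both kinds share a program of transcription factors and cyclic AMP signaling genes, among them the retinoic acid receptor Rarb and the phosphodiesterase Pde10a.

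The label was first checked against markers that the selection did not use. Penk, at chr4:4133531-4138819 on the minus strand of mm10, gave 162, 168 and 216 CPM (a counts-per-million scale, here of the UMIs of the members) in LPA replicates 1 to 3, and 191, 163 and 185 in vehicle replicates 1 to 3. The range over the 6 libraries, 162 to 216 CPM, did not overlap with that of nuclei chosen by a mirrored Drd1 rule, 3.34 to 20.4 CPM. Gpr6, a constitutively active receptor of the indirect pathway at chr10:41069977-41072285, was at 43.2 ± 12.2 CPM (SD, n = 6) against 2.09 ± 2.61 in Drd1 nuclei. Upb1 was at 11.1 ± 1.09 CPM in members and had no UMI in Drd1 nuclei, and the transcription factor Sp9 was at 20.7 ± 3.55 CPM against 6.08. Six3, another transcription factor of the list, was at 32.7 CPM against 28.8, and was higher in members in 4 of 6 libraries. Gpr52 is listed at 0 in every library and set. The markers outside the selection therefore stood where the label puts them in 4 of 6 cases, with the other 2 not separating the sets.

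Sequences just upstream of genes on either side of this division are shown because Gpr6 and Tac1 differ between the sets and both hold letters of the cyclic AMP response element. They are the 250 bases before the annotated start in RefSeq (GRCm38.p6), read 5′ to 3′ on the gene's strand, for Gpr6 at chr10:41072291-41072540 (minus) and for Tac1 at chr6:7554811-7555060 (plus). Capitals mark TGACGTCA in Gpr6 and CGTCA, the reverse strand of TGACG, in Tac1.
Gpr6: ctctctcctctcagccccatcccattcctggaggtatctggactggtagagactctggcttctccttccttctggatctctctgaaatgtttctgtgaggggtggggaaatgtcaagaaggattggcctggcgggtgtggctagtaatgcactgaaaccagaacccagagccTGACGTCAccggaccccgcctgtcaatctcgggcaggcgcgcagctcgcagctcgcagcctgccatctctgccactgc
Tac1: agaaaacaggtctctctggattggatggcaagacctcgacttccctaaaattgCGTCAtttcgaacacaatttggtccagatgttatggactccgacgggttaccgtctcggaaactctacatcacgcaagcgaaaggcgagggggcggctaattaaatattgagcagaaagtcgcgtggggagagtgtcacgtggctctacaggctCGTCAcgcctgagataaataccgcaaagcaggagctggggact
The letters TGACGTCA, searched on both strands, were found in 1.55% of 32851 promoter entries, and the shorter TGACG, which is contained in the longer motif, in 17.8%. Of the 12 genes that were highest in Drd2 over Drd1 nuclei, 8 had an entry and Gpr6 alone held either motif. Of the 12 lowest, 11 had an entry, none held the longer motif, and Tac1 and Isl1 held the shorter. A match describes letters in this window and nothing about binding.

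The values used for the selection are given as a description. Among members, 98.6% had a UMI of Drd2 (median 4), 82.7% of Adora2a (median 2) and 81.3% of both. Rarb was found in 98.7% (median 11 UMIs) and Pde10a in 99.9% (median 29 UMIs). A single Drd1 UMI was present in 3.45% of members, and Otof and Chst9 in 7.99% and 3.90%. Of 10673 nuclei that met every other condition, 8181 had no UMI of Drd2 or Adora2a, 608 had 1, 319 had 2, 277 had 3 and 1288 had more. Just outside the limit, the 319 nuclei with 2 UMIs had Penk at 113 ± 24.7 CPM and Rgs9 at 298 ± 66.6. Just inside, the 277 nuclei with 3 UMIs had Penk at 157 ± 48.7 and Rgs9 at 443 ± 61.1, against 181 and 606 in all members (SD, n = 6).

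Members made up a small and similar share of each library. They were 233 of 8525 nuclei (2.73%) in LPA replicate 1, 227 of 10266 (2.21%) in LPA replicate 2 and 257 of 9102 (2.82%) in LPA replicate 3. In vehicle replicates 1 to 3 they were 230 of 8102 (2.84%), 298 of 12410 (2.40%) and 320 of 12319 (2.60%). The 95% Clopper-Pearson intervals, which cover counting error only, ran from 1.94% to 2.51% for the lowest library and from 2.49% to 3.22% for the highest. The groups overlapped, at 2.59% ± 0.331 with LPA and 2.61% ± 0.219 with vehicle (SD, n = 3), a difference of -0.0233 percentage points (two-sided exact permutation test, p = 0.9). With 3 libraries a group, 20 assignments exist and the smallest p that this test can give is 0.1. A share of sorted NeuN-negative nuclei is set by the sort as well as by the tissue. It is not a share of striatal neurons in the brain.

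**Figure D1:**
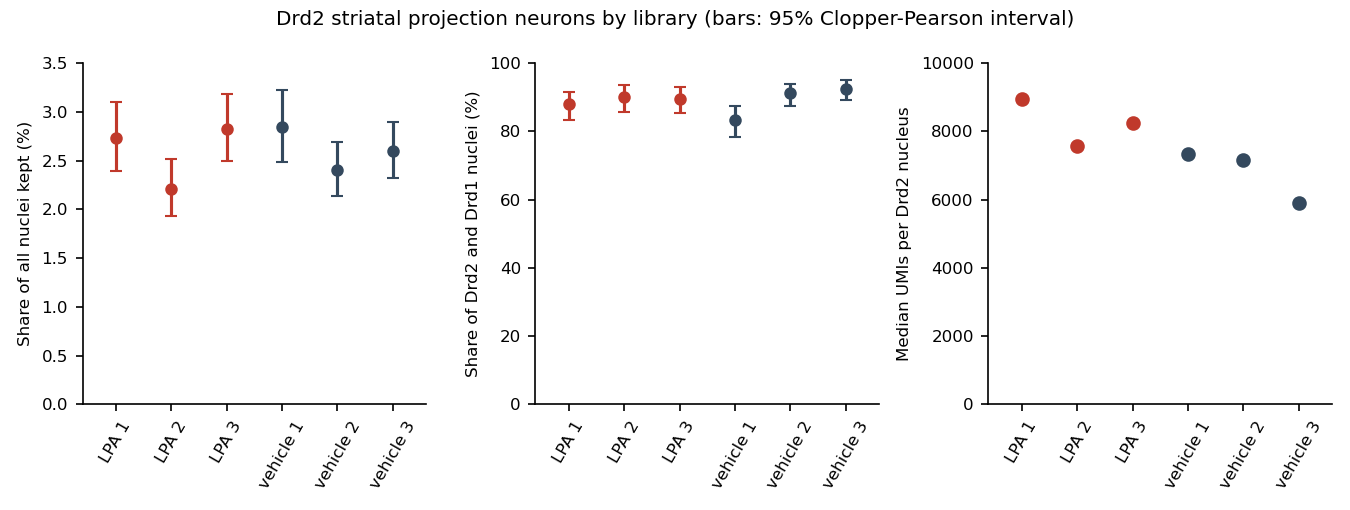
Each point is a library of the LPA (red) or vehicle (dark) group, and the panels give members as a percentage of all nuclei kept, as a percentage of Drd2 and Drd1 nuclei, and their median UMIs per nucleus. Bars are 95% Clopper-Pearson intervals, and the shares overlap between the groups while the 3 medians of the LPA libraries, 7580 to 8937, lie above the 3 of the vehicle libraries, 5899 to 7322.

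Drd2 nuclei were compared in number with nuclei of a mirrored Drd1 rule (at least 3 UMIs of Drd1, the same minimum for Rarb and Pde10a, at most 1 UMI of Drd2 and Adora2a), of which there were 188. Drd2 nuclei were 87.9%, 90.1% and 89.5% of the sum of both in LPA replicates 1 to 3. The corresponding shares were 83.3%, 91.1% and 92.5% in vehicle replicates 1 to 3. The means, 89.2% ± 1.12 and 89.0% ± 4.94, did not separate the groups (exact permutation test, p = 1, n = 3). These percentages depended on the minimums. With looser minimums the Drd2 share was 79.3% in LPA and 77.6% in vehicle libraries, and with stricter ones 99.0% and 97.8%. Members could reach their minimum through either of 2 genes and Drd1 nuclei through 1 gene alone, so that the rule itself favours the Drd2 side at each minimum and the shares do not give the relative abundance of the cells. A further 17 co-expressing nuclei belonged to neither set. They had at least 3 UMIs of Drd2 and Adora2a together and at least 2 of Drd1, and met the other limits.

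The members had transcripts of the antigen used to sort them out. Rbfox3, the gene of NeuN, was at 423 ± 52.5 CPM in members, 420 in Drd1 nuclei and 22.9 in nuclei of an oligodendrocyte-type set (at least 10 UMIs of Mog, Mag and Mobp and at most 1 of Gad1, Gad2, Slc17a6 and Slc17a7). After each nucleus was thinned to 3000 UMIs, which left out 14 of 1565 members and 250 of 9978 oligodendrocyte-type nuclei, Rbfox3 had a UMI in 71.0% ± 4.58 of members. The oligodendrocyte-type set, which should lack it, had a UMI in 4.05% ± 0.777. Before thinning, the median depths of the libraries ran from 5899 to 8937 UMIs in members and from 4823 to 7043 in the oligodendrocyte-type set. These values count nuclear RNA, and NeuN protein on the sorted nuclei was not measured here.

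Members were deep relative to the rest of the libraries, and their depth was higher in each LPA library than in any vehicle library. The median was 8937, 7580 and 8242 UMIs per member in LPA replicates 1 to 3, and 7322, 7147 and 5899 in vehicle replicates 1 to 3. The groups did not overlap and differed by 1464 UMIs, which gave the smallest p the exact permutation test allows (8253 ± 679 against 6789 ± 776, n = 3, p = 0.1). Over all nuclei kept the medians were 4588 with LPA and 4295 with vehicle (exact permutation p = 0.5). Drd1 and oligodendrocyte-type nuclei differed in the same direction. In Drd1 nuclei the medians averaged 8560 with LPA and 7182 with vehicle (exact permutation p = 0.1, n = 3), and in oligodendrocyte-type nuclei they were 7043, 6803 and 6979.5 in LPA replicates 1 to 3 and 5756.5, 5552.5 and 4822.5 in vehicle replicates 1 to 3, again without overlap. In the eccentric set described below the groups overlapped, with medians of 8521, 6780 and 7626 with LPA and 7389.5, 6935 and 5446 with vehicle. Since the rule for members counts raw UMIs, its reach moves with depth, and on thinned nuclei the share of members was 2.34% with LPA and 2.80% with vehicle (exact permutation p = 0.3, n = 3).

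Signs of mixed droplets were measured beside these results. Scrublet called 28.4% ± 7.90 of members in LPA and 26.3% ± 1.38 in vehicle libraries, against 18.4% and 19.7% of all nuclei. UMIs of oligodendrocyte, astrocyte, microglial and vascular markers were over 1% of the total in 11.2% and 11.8% of members, against 46.2% and 49.5% of all nuclei. In Drd1 nuclei Scrublet called 26.8% with LPA and 35.9% with vehicle, and 10.75% and 18.7% were over the glial limit. Vehicle replicate 2 had the highest values of Drd1 nuclei, 44.8% and 37.9%. In the eccentric set described below, Scrublet called 27.6% to 41.5% per library. Any pair of libraries shared 268 to 303 cell barcodes. No barcode was a member in more than 1 library, and 18 members had a barcode that also occurred in another library. The part of mixed droplets in the values that follow was not tested. Results without them are given beside Gfap, Atp13a5, Ide, Fkbp5, Stk31, Cemip2 and Gm15398.

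The shared program of striatal projection neurons was present throughout. All 18 of its listed genes were higher in members than in all other nuclei kept in every library, where 21.2% of genes of at least 20 CPM were. Adcy5, the striatal adenylyl cyclase, was at 679 ± 79.4 CPM against 137 in all other nuclei. Rgs9, which shortens G-protein signals, was at 606 ± 69.1 against 76.2, and Gng7, a G-protein subunit that works with Gnal, was at 506 ± 51.3 against 70.1. Ppp1r1b, which encodes the phosphatase inhibitor DARPP-32, was at 131 ± 19.0 CPM against 15.3. Against Drd1 nuclei 2 of the 18 (Foxp1 and Meis2) were higher in members in all 6 libraries and none was lower, where 2.84% and 3.32% of all genes compared were, with Rgs9 at 524 CPM and Adcy5 at 629 in Drd1 nuclei. The other 16 were mixed. The same list was compared with nuclei of a rule for Otof or Chst9 with Foxp2 (1085 nuclei), the markers of eccentric striatal neurons. That rule asked for at least 3 UMIs of Otof and Chst9 together, at least 3 of Foxp2 and at most 2 of Drd2 and Adora2a. Unlike the rules for members and Drd1 nuclei, it set no minimum for Rarb and Pde10a. In this eccentric set 15 of the 18 were lower than in members in every library. The part of the unequal rules in that count was not tested. Of all 7795 genes of at least 20 CPM in that comparison, 13.6% were higher in members in every library and 24.5% were lower.

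**Figure D2:**
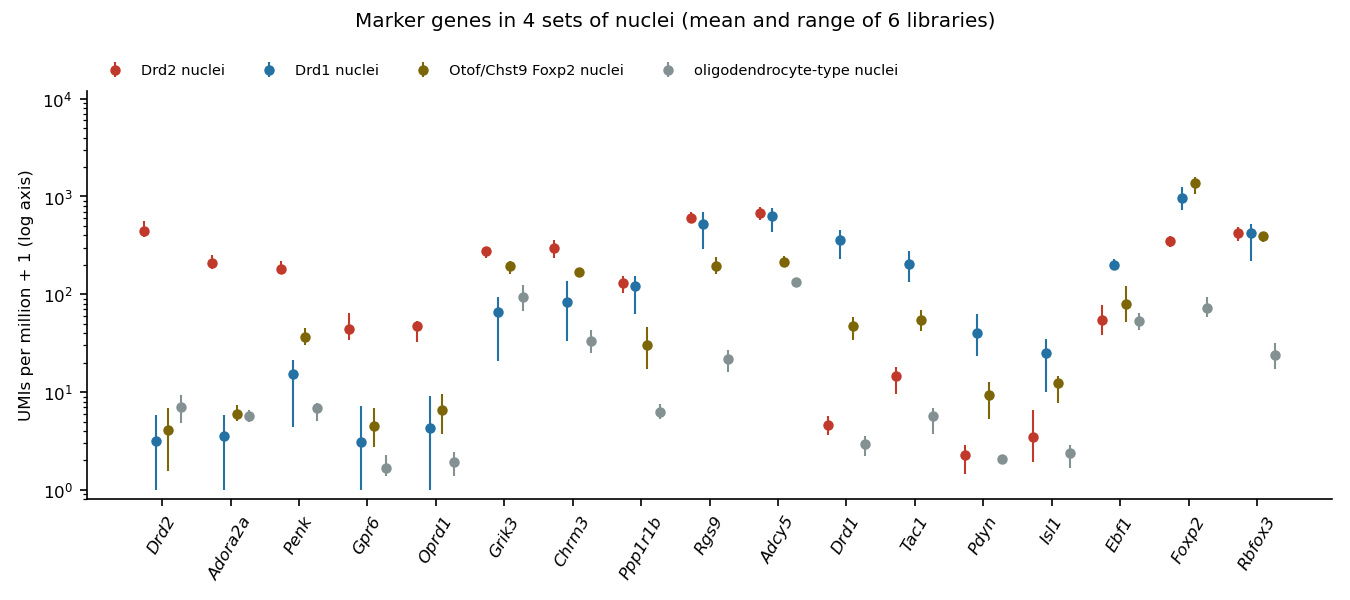
Points are means of 6 libraries and bars their range, in CPM plus 1 on a log axis, for 4 sets of nuclei chosen by marker rules. Drd2, Adora2a, Penk, Gpr6 and Oprd1 stand highest in Drd2 nuclei and Rgs9, Adcy5 and Rbfox3 overlap between Drd2 and Drd1 nuclei.

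Signaling genes of the dopamine, adenosine and cyclic AMP list were compared between the projection neuron sets in the same way. Of 29 listed genes of at least 20 CPM, 4 were higher in members than in Drd1 nuclei in all 6 libraries (Gpr6, Gnao1, Pde4b and Gnb5) and none was lower. Over all 7689 genes of at least 20 CPM in either set, 218 (2.84%) were higher in every library and 255 (3.32%) were lower. With 0.5 UMI added to each sum, as in the ranking of genes by log2 ratio, 175 were higher and 345 lower. Gnb5, the G-protein subunit that pairs with Rgs9, was at 138 ± 13.6 CPM in members and 103 in Drd1 nuclei. Gnao1, the main inhibitory G-protein subunit of brain, was at 585 ± 49.4 against 491. The adenosine A1 receptor gene Adora1 was at 37.6 ± 3.71 CPM against 40.3.

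Of 7 listed opioid genes, 5 reached 20 CPM in members or Drd1 nuclei, and of these 2 were higher in members in all 6 libraries (Penk and Oprd1), 2 were lower (Pdyn and Oprm1) and 1 was mixed, where 2.84% of all genes compared were higher and 3.32% lower. Penk and Pdyn are also the pathway markers described above. Oprd1, the delta receptor for enkephalin at chr4:132110726-132144486, was at 31.8, 52.5 and 50.6 CPM in members of LPA replicates 1 to 3 and at 43.5, 45.8 and 52.1 in vehicle replicates 1 to 3. Drd1 nuclei ran from 0 to 8.16 CPM, so that the ranges did not overlap. Oprm1, the mu receptor and a marker of striatal patches, was at 70.6 ± 10.6 CPM in members and 88.8 in Drd1 nuclei, and was lower in members in all 6 libraries. Oprk1, the kappa receptor, was at 22.7 ± 5.42 CPM against 27.6 and was higher in members in 2 of 6. Pdyn was at 1.25 ± 0.462 CPM in members against 38.8 in Drd1 nuclei. After thinning to 3000 UMIs, Penk had a UMI in 42.0% ± 5.15 of members and 1.76% of oligodendrocyte-type nuclei, and Oprd1 in 14.8% ± 3.73 and 0.210%. At this depth most members had no UMI of the peptide gene that marks them.

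Receptor genes of other transmitters are given next. Chrm3, a muscarinic acetylcholine receptor coupled to calcium release, was at 299 ± 44.9 CPM in members and 81.7 in Drd1 nuclei. Grik3, a kainate receptor subunit, was at 276 ± 23.9 CPM against 64.9, and was the only glutamate receptor gene of 19 that was higher in every library. Grin3a, an NMDA receptor subunit, was lower in every library, at 64.6 ± 12.6 CPM against 86.7. Gabra3, a GABA-A receptor subunit, was at 33.9 ± 4.06 CPM against 14.4 and was higher in all 6, while Gabbr1 of the GABA-B receptor was at 228 ± 26.2 against 264 and was lower in all 6. The other 14 of the 16 GABA genes were mixed. Counts of 1 higher and 1 lower in each of these lists stand beside 2.84% higher and 3.32% lower over all genes compared (17 of 19 glutamate receptor genes were mixed). Htr4, a serotonin receptor listed for eccentric neurons, was at 61.5 ± 10.0 CPM in members and 61.9 in the eccentric set. It was at 34.2 CPM in Drd1 nuclei.

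Ranked by the library nearest to no difference, the 12 genes farthest above Drd1 nuclei were Drd2, Adora2a, Penk, Oprd1, Gpr6, Grik3, Gm19410, Gucy1a1, Chrm3, Unc5d, Sgcz and Fig4. Drd2 and Adora2a belong to the rule. Gucy1a1, a subunit of the nitric oxide receptor guanylate cyclase, had the narrowest range of the 12, with a mean log2 ratio of 1.46 (range 1.31 to 1.62, 0.5 UMI added to each count). Unc5d, a netrin receptor gene, was at 565 ± 42.6 CPM against 161, and Sgcz, a sarcoglycan gene, at 3011 ± 342 against 1060. Fig4, a phosphoinositide phosphatase gene, was at 104 ± 12.8 CPM against 35.9. All 12 genes with these values were higher in each of the 6 libraries, which the ranking requires.

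The 12 genes farthest below were Drd1, Pdyn, Tac1, Isl1, Impg1, Adra2c, Sntg2, Cntnap3, Asic4, Ebf1, Sox1ot and Lingo2. Tac1 was at 13.6 ± 3.25 CPM in members and 203 ± 59.2 in Drd1 nuclei, a mean log2 ratio of -3.87. Isl1 and Ebf1, transcription factors of direct-pathway development, were at 2.46 and 53.6 CPM against 24.1 and 200. Cntnap3, a contactin-associated adhesion gene, was at 11.7 ± 2.64 CPM against 128 ± 43.6. Adra2c, the alpha-2C adrenergic receptor, was at 6.64 ± 2.06 against 29.3. Foxp2 was at 353 ± 31.4 CPM in members, 960 in Drd1 nuclei and 1364 in the eccentric set, which that gene helped to choose. The Drd1 set held 25 to 46 nuclei per library, so that its low genes rest on few UMIs (27 of Penk and 4 of Gpr6 over all libraries).

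**Figure D3:**
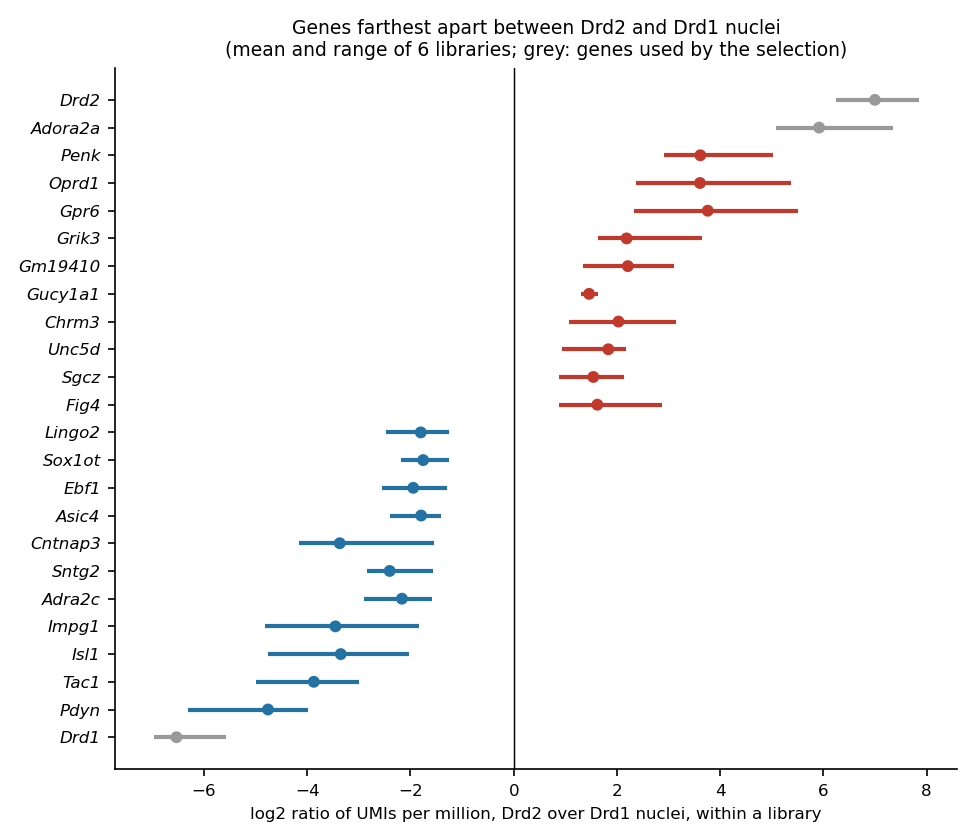
Points are the mean and bars the range over 6 libraries of the log2 ratio of CPM in Drd2 over Drd1 nuclei, for the 12 genes farthest to each side, with genes of the selection in grey. Outside the selection, Penk, Oprd1 and Gpr6 lead on the right with means of 3.61 to 3.76, and Pdyn leads on the left with -4.76.

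Against the eccentric set more genes were far apart. Of 7795 genes of at least 20 CPM in either set, 97 were higher and 98 lower in members by at least 1 on the log2 scale in every library. In the comparison with Drd1 nuclei these counts were 9 and 15. The eccentric set held 154 to 217 nuclei per library and the Drd1 set 25 to 46. The part of set size in these counts was not tested. Myo3b, an unconventional myosin gene, was at 173 ± 29.1 CPM in members and 14.3 in the eccentric set. Scn4b, a sodium channel subunit gene, was at 65.1 ± 16.5 against 7.08, and Pde1b, a calcium-activated phosphodiesterase gene, was at 267 ± 33.3 against 41.7. Lower in members were Vwc2l, at 28.5 ± 6.41 CPM against 296, and Kcnj6, a G-protein-gated potassium channel, at 24.9 ± 4.03 against 123. All 5 matrix markers (Epha4, Id4, Calb1, Gda and Rasgrp2) were higher in members than in the eccentric set in all 6 libraries, and 4 of 5 patch markers were lower, where 13.6% and 24.5% of all genes compared were. Across 8788 genes, Pearson's r of mean log2 CPM with members was 0.979 for Drd1 nuclei, 0.953 for the eccentric set, 0.887 for all other nuclei and 0.661 for oligodendrocyte-type nuclei. These points are genes of the same libraries and not independent replicates.

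The transcripts with the highest mean level in members, not divided by gene length, were Malat1 (38555 CPM), Phactr1 (7161), Celf2 (6984), Rbfox1 (6584), Lsamp (6574), Nrxn3 (6569), Dlg2 (5727), Meg3 (4554), Nkain2 (4504) and Kcnip4 (3888). Apart from the noncoding RNAs Malat1 and Meg3, of 6.98 and 30.7 kb, these genes span 458 kb (Phactr1) to 2197 kb (Lsamp). Celf2 and Rbfox1 encode RNA-binding proteins, and Nrxn3 and Dlg2 encode synaptic proteins. Phactr1 was at 1308 CPM in all other nuclei, whereas Lsamp was at 7492, so that a high level did not mark the members by itself.

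Spread among the members was taken as the Fano factor (variance over mean, near 1 for counting noise) of UMIs in thinned nuclei, in the library where it was lowest. Over 4124 genes with a mean of at least 0.1 UMI the median Fano factor was 1.08, and 107 genes were above 2 in every library. Malat1 (11.3), Tmeff2 (10.4), Pcdh9 (10.1), Trpm3 (9.43) and Mbp (8.59) led. In the 1126 thinned members that were neither called by Scrublet nor over 1% glial UMIs, Tmeff2 was at 1.39, Trpm3 at 2.39 and Mbp at 1.05, and 65 genes were above 2. Mbp is among the markers summed for the glial limit, so its spread had to fall there. The highest values in these nuclei were those of Malat1 (9.68), Kcnip4 (6.16), a potassium channel partner, Galntl6 (6.14), Nrg3 (4.87), a neuregulin, Phactr1 (4.73), Tenm2 (4.67) and Cntnap2 (4.56). Over all thinned members Penk was at 1.19, and markers of striatal territories were at 1.35 (Oprm1), 1.48 (Cnr1) and 1.53 (Reln), above the median gene and below 2. These variances include nuclei of all depths above 3000 UMIs and of every striatal region, which the labels do not separate.

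LPA was compared with vehicle on the summed UMIs of the members of each library, which ranged from 2130052 to 3036803. Of 12738 genes tested with edgeR's quasi-likelihood test and Benjamini-Hochberg adjustment, 5 (0.0393%) were called at an adjusted p under 0.05, and 613 had an unadjusted p under 0.05. DESeq2 called 5, all of them lower, and Gfap was not among them (DESeq2 adjusted p = 0.0643). In these sums fewer members and less RNA per member cannot be told apart from each other, only relative levels are compared, and the median log2 fold change was -0.0044. Gfap rose, and mt-Co2, mt-Co3, mt-Nd4 and mt-Nd2, transcripts of the mitochondrial respiratory chain, fell (0.0314% of genes tested were called lower).

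The mitochondrial transcripts moved together. For mt-Co2 members had 26.0, 39.1 and 57.9 CPM in LPA replicates 1 to 3 and 170, 128 and 171 in vehicle replicates 1 to 3. The groups did not overlap, and the log2 fold change was -1.90 (SE 0.210, edgeR adjusted p = 0.00384). For mt-Co3 the log2 fold change was -1.80 (SE 0.225, edgeR adjusted p = 0.00832), for mt-Nd4 -1.75 (SE 0.239, adjusted p = 0.0154) and for mt-Nd2 -1.65 (SE 0.236, adjusted p = 0.0193). All 10 listed mitochondrial transcripts were below 0 with a median of -1.64, 4 were called, and none of the 10 overlapped between groups, where 5.05% of genes tested were lower without overlap. Summed, they were at 199.1, 254 and 459 CPM in members of the LPA libraries and 1042, 765 and 1150 in the vehicle libraries. They were also lower with LPA outside the members, at 284 against 726 CPM in oligodendrocyte-type nuclei and 379 against 927 in all other nuclei, with no overlap between libraries (exact permutation p = 0.1 each, n = 3). The selection held mitochondrial UMIs to at most 1%, and without that limit 7 genes were called. The part of free RNA in these values was not tested. Calls for all 4 were lost without LPA replicate 2 and without vehicle replicate 1, which left 0 genes called (with 518 and 537 genes at an unadjusted p under 0.05). The log2 fold changes were then -1.87 and -1.86 for mt-Co2 and -1.66 and -1.78 for mt-Co3. For mt-Nd4 they were -1.71 and -1.78, and for mt-Nd2 -1.61 and -1.62.

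Gfap, an intermediate filament gene of astrocytes, was at 21.3, 21.6 and 25.5 CPM in members of LPA replicates 1 to 3 and at 10.7, 9.88 and 8.45 in vehicle replicates 1 to 3. The groups did not overlap and the log2 fold change was 1.25 (SE 0.199, edgeR adjusted p = 0.0489). Gfap was higher by a like factor in nuclei of other kinds, at 22.8 against 9.33 CPM in oligodendrocyte-type nuclei and 58.4 against 20.2 in all other nuclei. In the small Drd1 set it was at 4.22 ± 4.73 with LPA and 15.9 ± 13.8 with vehicle. Of the 8 astrocyte markers, 7 were above 0 and Gfap alone was called. Their median log2 fold change was 0.21, and 3 were higher without overlap, where 5.00% of genes tested were. The 8 markers summed to 2623 ± 346 CPM in members with LPA and 2334 ± 432 with vehicle (exact permutation p = 0.5, n = 3), and none was at 0. Gpc5 was the most abundant, at 749 ± 156 CPM. The part of astrocyte RNA in the Gfap value was not tested. Without nuclei over 1% glial UMIs the log2 fold change of Gfap was 1.09 and its edgeR adjusted p was 0.650, and without Scrublet doublets they were 0.86 and 0.760.

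**Figure D4:**
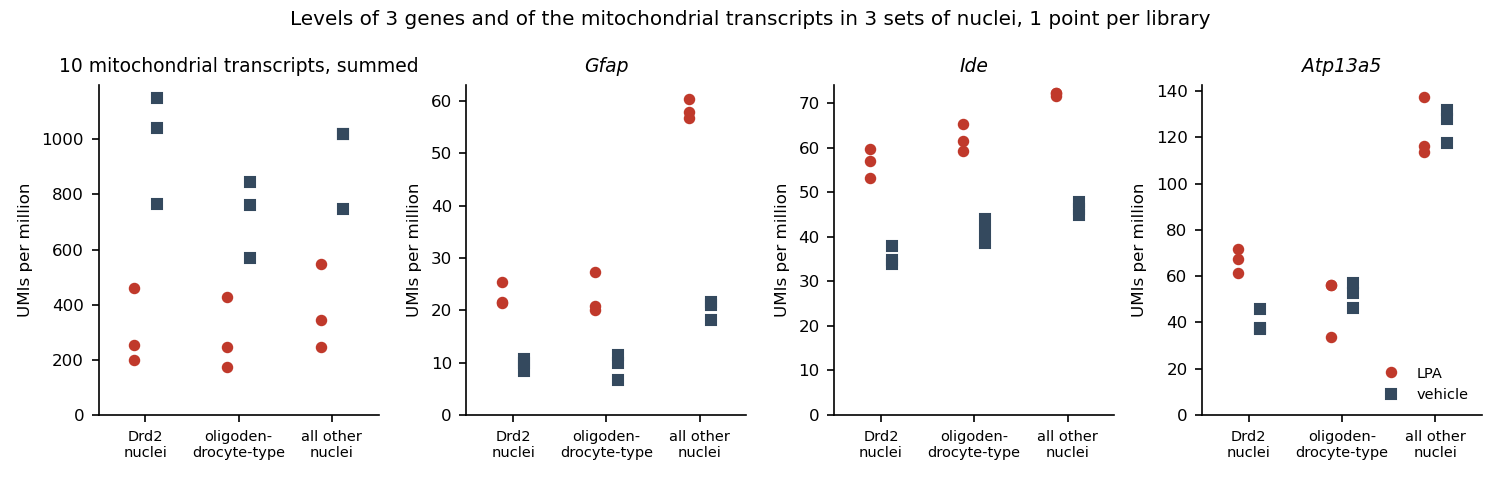
Points are libraries of the LPA (red circles) and vehicle (dark squares) groups, in CPM of each of 3 sets of nuclei, for 10 summed mitochondrial transcripts, Gfap, Ide and Atp13a5. The first 3 panels show the groups apart in all 3 sets, and Atp13a5 shows them apart in Drd2 nuclei while they overlap in the other sets.

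Next in order of p among genes above 0 were Atp13a5 and Ide, which were not called. Atp13a5, a P5-type cation ATPase gene, was at 71.8, 67.2 and 61.3 CPM with LPA and at 45.7, 37.5 and 37.1 with vehicle (log2 fold change 0.76, SE 0.123, edgeR adjusted p = 0.0536). The groups did not overlap in members, while in oligodendrocyte-type nuclei Atp13a5 was at 48.8 ± 13.0 against 52.1 ± 5.55 CPM and in all other nuclei at 122 against 126. It passed the threshold without nuclei over 1% glial UMIs (log2 fold change 1.13, edgeR adjusted p = 0.00486) and did not without Scrublet doublets (0.61, SE 0.295, adjusted p = 0.760). Ide, the insulin-degrading protease, was at 53.2, 57.1 and 59.8 CPM with LPA and 38.0, 33.9 and 34.7 with vehicle (log2 fold change 0.69, SE 0.124, edgeR adjusted p = 0.0822). It was also apart in oligodendrocyte-type nuclei (62.1 against 41.3 CPM) and all other nuclei (72.0 against 46.4). It passed the threshold without Scrublet doublets (log2 fold change 0.81, edgeR adjusted p = 0.0381) and did not without nuclei over 1% glial UMIs (0.74, adjusted p = 0.0577). In Drd1 nuclei Atp13a5 was at 26.8, 97.9 and 9.33 CPM with LPA and 50.6, 44.6 and 9.77 with vehicle, which overlapped. Its response did not differ detectably between Drd2 and Drd1 nuclei (interaction 0.60 on the log2 scale, SE 0.521, edgeR adjusted p = 1), and a difference from the other sets was not tested.

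The identity genes of the members gave no calls. Penk was at 182 ± 29.8 CPM with LPA and 179.5 ± 14.4 with vehicle (log2 fold change 0.04, SE 0.122, edgeR adjusted p = 0.992). The selection bounds the level of Drd2 in members, so its log2 fold change of -0.10 is a description and no test. Gpr6 was at 33.8, 38.2 and 38.8 CPM with LPA and at 64.0, 32.9 and 51.6 with vehicle, and its groups overlapped (log2 fold change -0.38, SE 0.198, adjusted p = 0.966). The 5 indirect-pathway markers tested had a median of -0.01, the 18 shared markers 0.03, and the 29 dopamine, adenosine and cyclic AMP genes 0.04. Median log2 fold changes were 0.07 for 20 glutamate receptor genes, 0.06 for 16 GABA genes, 0.01 for 23 potassium channel genes and 0.01 for 14 immediate-early genes, with no gene called in any of these lists. An adjusted p above the threshold does not show that a level was the same in both groups.

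**Figure D5:**
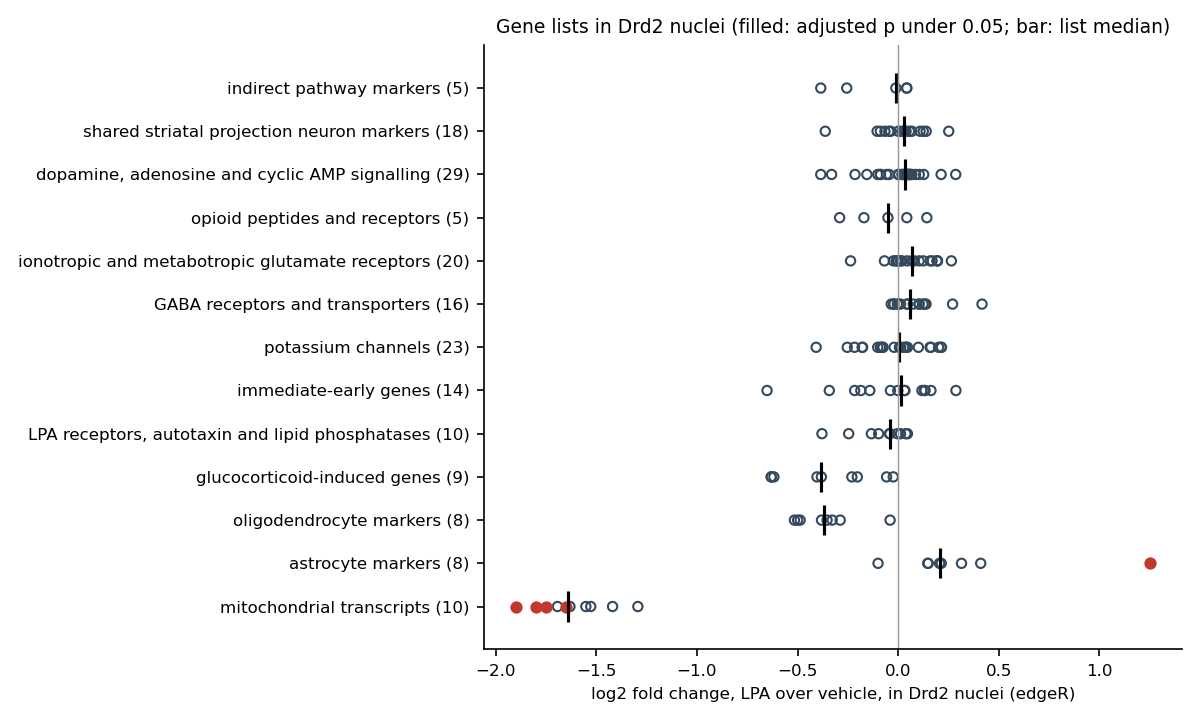
Each circle is the log2 fold change of a gene with LPA over vehicle in Drd2 nuclei (edgeR), with filled circles for an adjusted p under 0.05 and a bar at the median of each list; numbers in brackets count genes tested. The 18 shared striatal markers have a median of 0.03, the 10 mitochondrial transcripts lie from -1.90 to -1.29, and among the genes drawn Gfap lies farthest to the right at 1.25.

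No gene was called in the lists of glucocorticoid-induced genes and oligodendrocyte markers. All 9 glucocorticoid-induced genes tested were below 0, with a median of -0.38, 4 at an unadjusted p under 0.05 and 2 whose groups did not overlap. Of all genes tested, 2.36% were lower at an unadjusted p under 0.05 and 5.05% were lower without overlap. Fkbp5, which encodes a chaperone of the glucocorticoid receptor, was at 71.4, 66.8 and 66.6 CPM with LPA and 88.4, 95.5 and 90.1 with vehicle (log2 fold change -0.40, SE 0.103, edgeR adjusted p = 0.589). Its log2 fold change was -0.17 without Scrublet doublets, -0.26 with an upper limit on UMIs and -0.28 without nuclei over 1% glial UMIs. It was at 45.3 against 75.5 CPM in oligodendrocyte-type nuclei. The receptor genes Nr3c1 and Nr3c2 had log2 fold changes of 0.02 and 0.08. All 8 oligodendrocyte markers were below 0 with a median of -0.37, 5 at an unadjusted p under 0.05 (2.36% of all genes tested), and summed to 2281 ± 48.6 CPM in members with LPA and 2898 ± 762 with vehicle (exact permutation p = 0.4, n = 3). No oligodendrocyte marker was at 0, and Mbp was the most abundant at 1147 ± 272 CPM in members, against 9653 in oligodendrocyte-type nuclei. The part of oligodendrocyte RNA in these values was not tested.

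Genes of LPA receptors and LPA metabolism were measured in members as well. Lpar1, the receptor with the highest level among those listed in oligodendrocyte-type nuclei (283 CPM), was at 41.0 ± 7.89 CPM in members, and Lpar2, Lpar3 and Lpar4 were between 0.995 and 2.04 CPM. Lpar6 was at 5.37 ± 3.49 CPM with LPA and 7.05 ± 3.06 with vehicle in members, which overlapped (log2 fold change -0.38, SE 0.434, edgeR adjusted p = 0.983), and at 25.6 against 39.3 CPM in oligodendrocyte-type nuclei, without overlap. Lpar5 had no UMI in members of any library. Enpp2, which encodes the LPA-producing enzyme autotaxin, was at 227 ± 53.6 CPM in members and 1560 in oligodendrocyte-type nuclei. Plppr1 and Plppr4, phosphatase-related membrane proteins of neurons, were at 354 ± 18.9 and 132 ± 12.2 CPM against 41.8 and 13.9. None of the 10 genes tested from this list was called, and their median log2 fold change was -0.04. The oligodendrocyte marker Mbp was at 1147 CPM in members and 9653 in oligodendrocyte-type nuclei. The part of oligodendrocyte RNA in the Lpar1 and Enpp2 values of members was not tested.

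Whether Drd2 and Drd1 neurons differed in their response was tested as an interaction with the library as a block. Of 11828 genes tested, 0 (0%) were called by edgeR's quasi-likelihood test after Benjamini-Hochberg adjustment, with 535 at an unadjusted p under 0.05. DESeq2 called 0, with 145 under 0.05. The lowest p belonged to Stk31, Cemip2 and Gm15398 (edgeR adjusted p = 0.0933 each). Stk31, a kinase-like gene, was at 64.4, 27.6 and 36.5 CPM in Drd2 nuclei with LPA and at 49.1, 63.2 and 41.3 with vehicle. In Drd1 nuclei it was at 30.1, 53.0 and 49.7 CPM with LPA and at 5.63, 8.92 and 0 with vehicle. The groups overlapped in Drd2 nuclei and not in Drd1 nuclei, and the interaction was -3.31 on the log2 scale (SE 0.617). On simulated counts this test recovered 10% of 200 genes changed by 1 on the log2 scale, so the lack of calls does not show like responses. The test rests on 25 to 46 Drd1 nuclei per library. With looser minimums, which left 62 to 113, the interaction was -0.87 for Stk31 (SE 0.391), 0.09 for Cemip2 against 1.86, and 0.65 for Gm15398 against 1.60, and none was called. Stk31, Cemip2 and Gm15398 each passed the threshold with a sex term (edgeR adjusted p = 0.00918, 0.0449 and 0.0198). They also passed without vehicle replicate 1 (0.0179, 0.00343 and 0.0179) and without the filter on low counts. Without Scrublet doublets their interactions were -2.83, 0.89 and 1.73, and without nuclei over 1% glial UMIs -2.28, 0.93 and 1.71. None of these genes was called at either setting. Cemip2 was at 813 CPM with LPA and 654 with vehicle in oligodendrocyte-type nuclei, against 88.8 and 128.5 in Drd2 nuclei. The part of oligodendrocyte RNA in its values was not tested.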

How the data were processed

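Nuclei of LPA-injected and vehicle-injected brains (3 libraries each) were profiled with the 10x Genomics 3′ v3 kit, with 10000 nuclei targeted per library. The deposited values are raw UMI counts of 32285 genes, which the authors made with Cell Ranger 4.0.0. Reads had been aligned to mm10 with introns included (pre-mRNA), empty droplets had been removed, and nothing was normalized. Library totals ran from 48852970 to 65688644 UMIs. Groups and replicate numbers were taken from the labels. The study shows the values of these samples as those of individual mice, so each library was taken as 1 animal.

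Members, gene lists and named genes were chosen with earlier results of these data known. Named genes are those of the selection, list genes that were called or give a list's level, up to 10 called genes a direction (or the 3 of lowest p), the 3 of lowest p for a different response, the 12 farthest to each side of Drd1 nuclei and the 10 highest. Some listed genes are not reported here, and 1 was left out of its lists. Differences between sets chosen by marker genes are descriptions without a test, from the CPM of each set.

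UMIs were summed per library and tested with edgeR 4.0.16 (R 4.3.3, limma 3.58.1, filterByExpr, TMM, quasi-likelihood, Benjamini-Hochberg, threshold 0.05), with no replicate term. Counts of groups without overlap use TMM-normalized values. Shares and sums were compared by two-sided exact permutation tests. Nuclei were thinned to 3000 UMIs with seed 1. Scrublet (scanpy 1.11.5 on Python 3.11.15, with scipy 1.17.1, pandas 2.3.3 and numpy 2.4.6) ran at an expected rate of 0.08, and called nuclei were kept. The scripts were tested on simulated data. Alternatives were DESeq2 1.42.0, other filters and minimums, a term for sex or replicate number, and leaving out each library. Replicate profiles of the members differed by more than sampling noise (chi-square per degree of freedom 1.54 to 4.96). The study's SCTransform integration and label transfer were not repeated.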

Additional observations from a re-analysis of the deposited data

How the results depend on the processing

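With 3 libraries a group the exact test of a share cannot pass 0.05, so its p-values say nothing of stability. The difference in the share of members among all nuclei kept moved from -0.0233 to -0.461 percentage points after thinning, and it changed sign with stricter minimums (0.132 percentage points) and when 1 library was left out (-0.140 to 0.166). With Drd2, Drd1 and co-expressing nuclei as the total, which is another share, the difference was 0.0146. The Drd2 share of Drd2 and Drd1 nuclei changed sign with an upper limit on UMIs (-0.375), without Scrublet doublets (-1.28) and when 1 library was left out (-2.62 to 1.95). The difference in UMIs per member was 1019 to 1800 with 1 library left out, a check chosen after seeing the data. With 5 genes called in members, other settings gave 78 (no filter on low counts, 35 higher and 43 lower), 14 (upper limit on UMIs), 14 (without Scrublet doublets), 10 (without nuclei over 1% glial UMIs) and 3 (sex term), and leaving out 1 library gave 0 (LPA 2 or vehicle 1) to 20 (vehicle 3). Genes called for a different response in Drd2 and Drd1 nuclei numbered 9 without the filter, 4 with the sex term, 2 without Scrublet doublets and 0 to 13 with 1 library left out (13 without vehicle 1). Stricter minimums gave 3, all higher, on 1 to 7 Drd1 nuclei per library. Gfap lost its call in 14 of 18 settings (edgeR or DESeq2 adjusted p 6.11e-05 to 0.760), mt-Nd2 in 4, and mt-Co2, mt-Co3 and mt-Nd4 in 2, and each kept its direction in all 18. Atp13a5 and Ide were called in 3 settings each. The small change of Penk turned with 1 library left out (-0.114 to 0.135), with stricter minimums (-0.0111) and without doublets (-0.0131), and was never called. Those of Drd2 (-0.219 to 0.0998) and Adora2a (-0.179 to 0.0862) also turned with 1 library left out. The selection used both genes, so their values are a description. The cause of these shifts was not tested.

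With the replicate number as a block, 8 genes were called, all lower, and the exact tests of both shares gave p = 1. Same-numbered libraries correlated at 0.0995, 0.0502 and 0.0717 in their deviations from the group means, each library best with its own number, which is a hint from the data and not the design.

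Counts of 2130052 to 3036803 UMIs per library of members and 25 to 46 Drd1 nuclei per library limit what low genes can show. Genes near 1 CPM rest on a few UMIs.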

Other observations

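Several genes of other striatal groups were measured in the members without belonging to a comparison above. Of the 19 immediate-early genes listed, 14 passed the count filter of the LPA comparison, and Egr1 and Homer1 are described here. Egr1, an activity-induced transcription factor, was at 41.9 ± 5.59 CPM in members (SD, n = 6) and 21.4 in the eccentric set, and at 44.5 in Drd1 nuclei. Homer1, a scaffold of metabotropic glutamate receptors, was at 258 ± 33.0 CPM against 121 in the eccentric set and 242 in Drd1 nuclei.

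Among genes of striatal territories, Cnr1, the cannabinoid receptor that is graded across the striatum, was at 81.7 ± 20.0 CPM in members, 85.5 in Drd1 nuclei and 17.0 in the eccentric set. Reln, a secreted matrix protein gene, was at 174 ± 29.4 CPM in members, 314 in Drd1 nuclei and 101 in the eccentric set, and was higher than in Drd1 nuclei in 1 of 6 libraries. Interneuron markers summed to 53.2, 41.9 and 37.3 CPM in members of LPA replicates 1 to 3 and to 33.3, 32.9 and 18.3 in vehicle replicates 1 to 3. These groups did not overlap, and the p of 0.1 is the smallest the exact permutation test can give. None of the 10 genes was at 0, Sst was the most abundant at 9.20 ± 2.39 CPM, and none of the 3 tested was called (Nos1 log2 fold change 1.27, SE 0.384, edgeR adjusted p = 0.683). The part of interneuron RNA in members was not tested. Of 5 ependymal markers, 4 were tested and lay above 0 with a median log2 fold change of 0.91, none called, and their sum was 108 ± 22.4 CPM with LPA and 74.5 ± 37.2 with vehicle (exact permutation p = 0.3, n = 3).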
